A study of Rattus norvegicus with 62 samples.

Results

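Among 30 rat hearts sampled 6 or 24 h after the last dose of vehicle or rosiglitazone, 10 carried Myl7 above 9 on the log2 scale and 20 carried it at or below 9, out of 62 hearts in the whole series. Myl7 encodes the regulatory myosin light chain of atrial muscle. The 10 arrays are called Myl7-high hearts here and the 20 arrays the other hearts. They were chosen on the quantile normalized log2 signal of the 1 Myl7 probe set that the annotation assigns to a single gene. All animals were male Wistar rats, an outbred strain with no engineered allele, dosed orally once per day during 14 days with 0, 10 or 80 mg/kg of rosiglitazone, a glucose-lowering agonist of the nuclear receptor PPAR gamma. The Myl7-high hearts were 1 of 4 arrays of vehicle at 6 h, 4 of 5 at 10 mg/kg and 6 h, 2 of 5 at 80 mg/kg and 6 h and 3 of 5 at 80 mg/kg and 24 h. The other hearts were the remaining 3, 1, 3 and 2 arrays of these groups, all 6 of vehicle at 24 h and all 5 at 10 mg/kg and 24 h. The remaining 32 arrays, from 168 and 336 h, held 0 with Myl7 above 9. The labels call the tissue cardiac muscle that was cut sagittally, and give neither the chamber taken nor whether each sample came from its own animal. P-values therefore measure the spread between these samples, which may be technical.

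Atrial and ventricular muscle of the adult heart use different myosin light chains. Myl7 and Myl4 encode the regulatory and essential light chains of the atria, and Myl2 and Myl3 those of the ventricles, while the main rat heavy chain, Myh6, is made in both. Atrial cells also store atrial natriuretic peptide, the product of Nppa, in secretory granules and make sarcolipin, the product of Sln, a small inhibitor of the calcium pump of the sarcoplasmic reticulum. In a piece of heart, fewer cells of a type and less RNA per cell cannot be told apart.

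The 250 bases before the transcription start of 5 genes are shown because these genes carry most of the difference described below. They come from RefSeq, build GRCr8, 5′ to 3′, and end at the base before the start. Sln, Epha4 and Myl2 had no entry and are named only. Capitals mark matches, on either strand, to GATAA (GATA factors), GGTGTG (T-box factors), AAGTG (NK2 homeobox factors), TATAAA (the TATA box), the CArG box of serum response factor and the MEF2 site.
Myl7, chr14:84996625-84996874, minus strand: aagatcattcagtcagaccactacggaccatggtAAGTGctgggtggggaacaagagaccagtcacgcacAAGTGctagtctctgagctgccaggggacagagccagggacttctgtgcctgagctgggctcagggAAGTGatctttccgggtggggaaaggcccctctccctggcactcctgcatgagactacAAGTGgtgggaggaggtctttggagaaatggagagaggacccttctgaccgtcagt
Myl4, chr10:89975900-89976149, plus strand: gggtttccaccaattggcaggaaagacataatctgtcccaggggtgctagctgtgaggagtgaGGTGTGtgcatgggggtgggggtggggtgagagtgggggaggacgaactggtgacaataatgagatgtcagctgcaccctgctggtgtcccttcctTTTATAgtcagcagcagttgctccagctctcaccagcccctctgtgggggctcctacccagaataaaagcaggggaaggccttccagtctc
Nppa, chr5:163711934-163712183, plus strand: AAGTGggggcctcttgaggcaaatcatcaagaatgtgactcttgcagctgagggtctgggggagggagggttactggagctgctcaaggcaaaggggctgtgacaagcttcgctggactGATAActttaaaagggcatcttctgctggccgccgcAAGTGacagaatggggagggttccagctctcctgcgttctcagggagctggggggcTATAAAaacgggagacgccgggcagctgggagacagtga
Mybphl, chr2:198693202-198693451, plus strand: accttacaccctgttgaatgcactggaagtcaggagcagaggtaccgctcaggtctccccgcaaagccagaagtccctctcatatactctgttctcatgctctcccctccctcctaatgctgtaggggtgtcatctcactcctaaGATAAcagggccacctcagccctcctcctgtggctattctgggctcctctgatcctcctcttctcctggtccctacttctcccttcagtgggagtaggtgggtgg
Hamp, chr1:95300272-95300521, minus strand: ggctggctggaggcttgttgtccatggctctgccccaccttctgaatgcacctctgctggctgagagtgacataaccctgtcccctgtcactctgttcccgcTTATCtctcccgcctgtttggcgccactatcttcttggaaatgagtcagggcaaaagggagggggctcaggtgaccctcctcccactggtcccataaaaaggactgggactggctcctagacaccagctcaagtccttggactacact
Of 33469 promoter stretches of this length, 23.5% held GATAA, 15.4% GGTGTG, 40.6% AAGTG, 12.9% TATAAA, 1.5% a CArG box and 2.96% a MEF2 site. Myl7 held 4 matches, all to AAGTG, and Mybphl and Hamp held 1 each, both to GATAA. Nppa held 4, to GATAA, to TATAAA and at 2 places to AAGTG, and Myl4 held 2, to GGTGTG and, on the opposite strand, to TATAAA. A match is a description of letters and not a binding site, and the motifs did not overlap in these stretches.

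Some arrays differed in RNA quality or stood apart in a later comparison. The actin control difference, the log2 signal of the 3′ minus the 5′ control probe set and a measure of RNA quality, ran from 0.624 to 1.08 in Myl7-high hearts and from 0.774 to 2.12 in the other hearts, and the 5 arrays of high value were all among the other hearts. The hexokinase control difference ran from 1.49 to 3.76 in Myl7-high hearts and from 1.5 to 6.08 in the other hearts. On the first 2 principal components the 62 arrays formed 3 clusters, which held 4, 1 and 5 Myl7-high hearts and 8, 2 and 10 other hearts. The vehicle 6 h replicate 6 array, the only Myl7-high vehicle heart, had ordinary control differences, 0.764 for actin and 1.498 for hexokinase. It held the lowest level of the 30 hearts for the genes that lead the F test between groups, and results that rest on it are given with and without it. Array medians ranged from 31.2 to 86.9 signal units over the series.

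Myl7 lay at 9.32 at the lowest, 12.04 at the median and 12.94 at the highest in Myl7-high hearts, against 5.49, 7.38 and 8.71 in the other hearts. The value nearest above the limit was 9.32, in 10 mg/kg 6 h replicate 5, and the value nearest below was 8.71, in 10 mg/kg 24 h replicate 3. Apart from replicate 5, the lowest Myl7-high heart stood at 11.22. In the 32 hearts of 168 and 336 h, Myl7 ran from 4.998 to 8.533. With a mean for each dose and time group in the model, the difference was 5.24, or 37.7-fold, a value that the choice of arrays fixed and that was not tested.

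**Figure D1:**
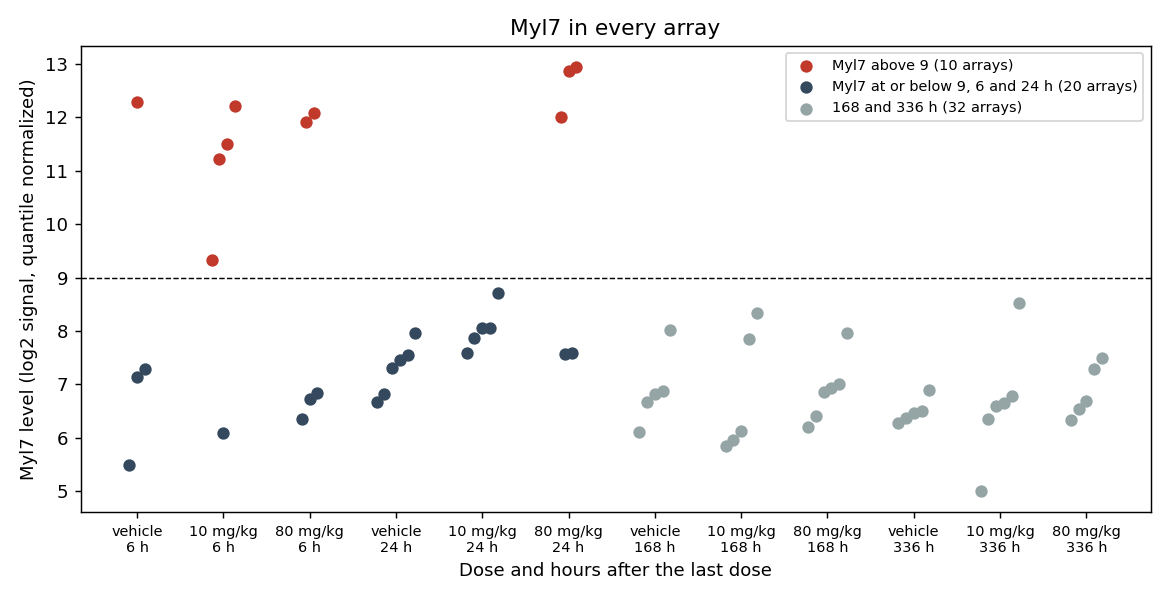
Myl7 level (log2 signal, quantile normalized) in each of the 62 arrays by dose and by hours after the last dose, with 1 point per array and the limit of 9 as a dashed line. Red points are the 10 arrays above 9, and 9 of them lie at 11.22 or higher.

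The other atrial markers, Myl4, Nppa and Sln, were named together with the split from earlier results of these data, so their levels are a description. Myl4, the atrial essential light chain, had a lowest, median and highest level of 7.77, 10.67 and 11.58 in Myl7-high hearts and of 5.82, 6.86 and 7.62 in the other hearts. The levels did not overlap, and the adjusted difference was 4.30 (SE 0.30), or 19.7-fold. Nppa, the precursor of atrial natriuretic peptide, lay at 11.05, 12.95 and 13.59 in Myl7-high hearts and at 9.30, 10.46 and 11.01 in the other hearts. It too did not overlap, with a difference of 2.67 (SE 0.29), or 6.37-fold. Nppa was thus still at 9.30 or more in every other heart. Sln, which encodes sarcolipin, lay at 7.56, 10.38 and 10.96 in Myl7-high hearts and at 4.85, 6.64 and 8.59 in the other hearts, a difference of 4.02 (SE 0.47), or 16.2-fold. Its overlap came from 10 mg/kg 6 h replicate 5, at 7.56, which was the lowest Myl7-high heart for all 4 markers.

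Beyond Myl7, 18624 probe sets were compared between Myl7-high and other hearts with limma, and 6 passed at an adjusted p under 0.05, all higher in Myl7-high hearts, which is 0.0322% of those compared. The markers Myl4, Nppa and Sln were among the 6, leaving 3: Epha4, Hamp and 1 probe set without a gene in the annotation. Myl7 and these markers stayed in the adjustment, which lowers the other adjusted p-values. The 3 still passed with Myl7 and the markers left out of it. No probe set passed as lower, where the smallest limma adjusted p was 0.999. At an unadjusted p under 0.05 limma gave 364 higher and 420 lower, 1.95% and 2.26%. Only Myl4 and Nppa lay higher in every Myl7-high heart than in any of the 20 other hearts. These were 0.0107% of probe sets, and 0 lay lower throughout. The arrays were split by a measured level, so these tests ask what moved with Myl7 and do not compare groups set by the study.

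Epha4, a receptor tyrosine kinase for ephrins, lay at 6.32, 6.86 and 7.75 at its lowest, median and highest in Myl7-high hearts and at 5.50, 6.18 and 6.83 in the other hearts. The levels overlapped, and the 2 highest were both Myl7-high hearts at 80 mg/kg and 24 h. The difference was 0.99 (SE 0.14), or 1.99-fold, with an adjusted p of 0.000849 by limma. It was 0.86, 1.08, 0.72 and 1.29 within vehicle 6 h, 10 mg/kg 6 h, 80 mg/kg 6 h and 80 mg/kg 24 h. The 3 other Epha4 probe sets above the filter differed by 0.71, 0.52 and 0.15 and did not pass, with a limma adjusted p of 0.999 each. On the deposited scale, with no normalization between arrays, the Epha4 difference of 0.91 had an adjusted p of 0.57 by limma.

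Hamp encodes hepcidin, the peptide hormone that lowers iron export from cells, made mainly in liver. Its lowest, median and highest levels were 6.29, 7.48 and 9.96 in Myl7-high hearts and 5.23, 6.01 and 6.51 in the other hearts. The difference was 1.88 (SE 0.33), or 3.67-fold, with an adjusted p of 0.0191 by limma. With Myl7 and the markers left out of the adjustment, the limma adjusted p for Hamp was 0.0447. At 6 h Hamp ran from 6.50 to 9.96 in 7 Myl7-high hearts and from 5.23 to 6.44 in 7 other hearts, without overlap. At 24 h it ran from 6.29 to 6.91 in 3 Myl7-high hearts and from 5.24 to 6.51 in 13 other hearts, which overlapped. The difference within vehicle 6 h, 10 mg/kg 6 h, 80 mg/kg 6 h and 80 mg/kg 24 h was 2.08, 3.18, 1.62 and 1.14, and a limma F test of whether these differ gave an adjusted p of 0.972. The call rested on single arrays, since the limma adjusted p was 0.16 without vehicle 6 h replicate 6, 0.313 without 10 mg/kg 6 h replicate 2 and 0.123 without 80 mg/kg 6 h replicate 2. It was 0.194 without the 5 arrays of high actin control difference and 0.628 within the 4 groups that hold both kinds of heart. The difference itself kept its size in these fits, from 1.55 to 1.89. Of 12 liver transcripts listed after the Hamp value was seen, 11 had a probe set and 4 were above the filter. These 4 differed by −0.05 to 0.10 and 0 passed, which says little, since 0.0322% of all probe sets passed. Where the Hamp transcript came from was not tested. Albumin (Alb) ran from 5.60 to 7.34 in Myl7-high hearts and from 5.36 to 7.83 in the other hearts.

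The probe set without a gene, 1389045_at, lay at 5.87, 8.25 and 8.80 at its lowest, median and highest in Myl7-high hearts and at 2.86, 5.80 and 6.86 in the other hearts. The levels overlapped: 10 mg/kg 6 h replicate 5, at 5.87, lay below 8 other hearts, and replicate 3 of that group, at 6.77, below 1. The difference was 3.14 (SE 0.47), or 8.79-fold, with an adjusted p of 0.00161 by limma, and it was between 2.43 and 3.91 within the 4 groups. No gene is named for it here.

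2 more genes passed when the filter on dim probe sets was dropped. Their means over all 62 hearts, 4.15 for Mybphl and 3.67 for Dmrta1, lay below the filter level of 5.03. Mybphl, a myosin binding protein of the atria and conduction system, lay at 5.89, 7.53 and 8.40 in Myl7-high hearts and at 1.84, 3.74 and 5.002 in the other hearts. The groups did not overlap, and the difference was 3.23 (SE 0.45), or 9.4-fold, with a limma adjusted p of 0.00107 without the filter. Dmrta1, a transcription factor of the DMRT family, lay at 2.95, 4.29 and 5.35 in Myl7-high hearts and at 1.25, 3.25 and 4.93 in the other hearts. These overlapped widely, and the means of 4.24 and 3.28 both lay below the filter level, where signals are dim. The adjusted difference of 2.24 (SE 0.35) had a limma adjusted p of 0.00483 without the filter. A later heart of low Myl7, 10 mg/kg 168 h replicate 3, reached 5.66, above every Myl7-high heart. Vsnl1, a neuronal calcium sensor, differed by 1.25 (SE 0.25) and did not pass in that fit, with a limma adjusted p of 0.11. Mybphl, Dmrta1 and Vsnl1 were chosen for naming after their values were seen.

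**Figure D2:**
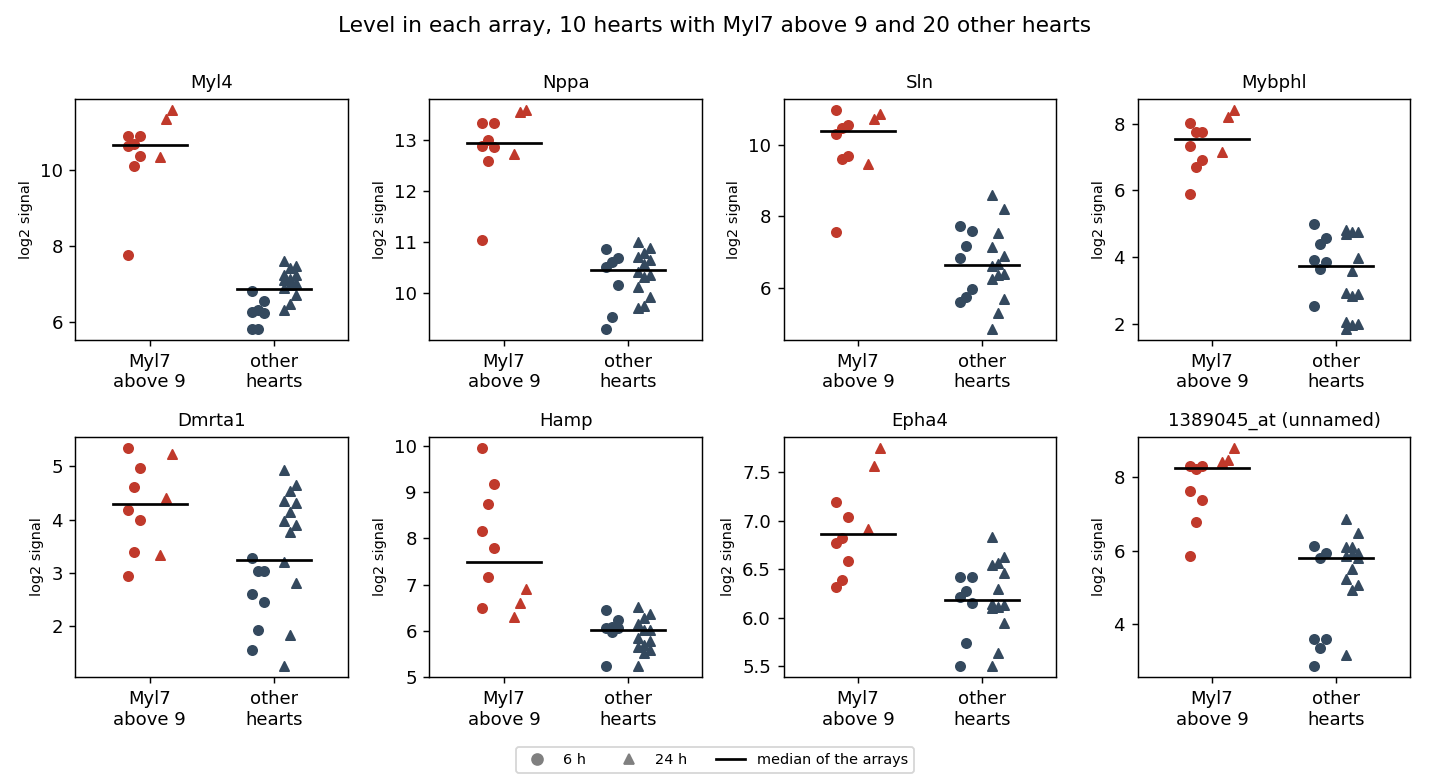
Level (log2 signal) of 8 probe sets in each heart, Myl7-high hearts in red on the left and other hearts in dark blue on the right, with circles for 6 h, triangles for 24 h and a bar at the median. Myl4, Nppa and Mybphl do not overlap between the 2 kinds of heart, and the highest Hamp level, 9.96, is in a 6 h heart.

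No ventricular gene passed the test in either direction. Myl2, the ventricular regulatory light chain, lay at 13.60, 13.69 and 13.83 in Myl7-high hearts and at 13.60, 13.70 and 13.81 in the other hearts. The difference was 0.03, with a 95% interval from −0.07 to 0.12. Myl3, the ventricular essential light chain, differed by 0.003 (−0.12 to 0.13) and Myh6 by −0.01 (−0.10 to 0.08). These 3 genes lay near the top of the scale, whose highest signal was 21430 units, so a saturated signal and an equal level cannot be told apart by them. A second, dimmer Myl2 probe set, with a mean of 6.62, differed by 0.11 (SE 0.19), and a second Myh6 probe set, with a mean of 12.62, by 0.66 (SE 0.76), neither passing. Irx4 and Hey2, ventricular transcription factors of moderate level, differed by −0.001 (−0.17 to 0.17) and −0.19 (−0.43 to 0.05). Irx4 ran from 8.37 to 8.87 in Myl7-high hearts and from 8.37 to 9.01 in the other hearts, and Hey2 from 7.95 to 8.45 in Myl7-high hearts and from 7.78 to 8.76 in the other hearts. Both kinds of heart therefore carried ventricular transcripts at overlapping levels, and the working description of atrial against ventricular tissue goes further than these values. What the arrays show is 10 hearts with more of a small set of atrial transcripts. Whether that reflects the piece of heart taken was not tested.

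**Figure D3:**
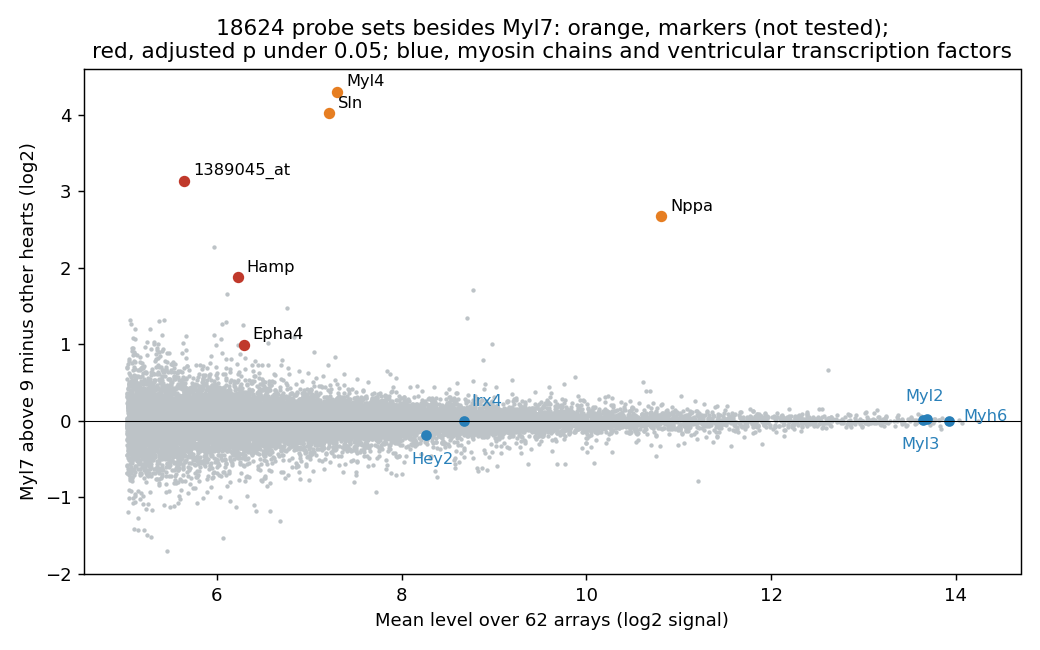
Difference of Myl7-high minus other hearts (log2) against the mean level over 62 arrays (log2 signal) for 18624 probe sets, with the markers in orange, other probe sets of adjusted p under 0.05 in red and 5 ventricular or shared cardiac genes in blue. Myl4, Sln, 1389045_at and Nppa stand highest, while Myl2, Myl3 and Myh6 lie at 0 at the right end.

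The wider list of atrial genes held none that passed. It had 31 members besides the markers, of which 27 had a probe set and 23 were above the filter, and 0 of these passed. Over all genes only 5 of 10556 passed, the markers included, so this count says little about the list. Of the 23, 15 were higher and 8 lower, with a median of 0.09, whereas over all 10556 genes 47% were higher and the median was −0.01. Members were counted after the filter, so those absent from it, Mybphl among them, are not in the median. Stard10, a lipid transfer protein, differed by 1.25 (SE 0.31) with a limma adjusted p of 0.671, and is named after its value was seen. Kcnj5 and Kcnj3 encode the subunits of the acetylcholine-activated potassium channel of the atria. They differed by 0.26 (SE 0.11) and 0.25 (SE 0.33), neither passing, with a limma adjusted p of 0.999 each. Kcna5, the channel of the ultrarapid potassium current, differed by 0.29 (SE 0.19), the transcription factor Tbx5 by 0.32 (SE 0.18) and Pam, an enzyme of peptide amidation found in atrial granules, by 0.15 (SE 0.09). The orphan receptors Nr2f2 and Nr2f1 differed by 0.03 and −0.04, the gap junction genes Gja5 and Gja1 by −0.06 and −0.03, the potassium channel Kcnk3 by −0.06 and the secreted protein Dkk3 by 0.07. None of these passed. Bmp10 had no probe set assigned to it alone.

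The ventricular list gave 22 genes above the filter, 0 passing, 7 higher and 15 lower, with a median of −0.03, beside 5 of 10556 genes passing, 47% higher and a median of −0.01 over all genes. Its highest and lowest members were Irx1 at 0.20 and Kcnj2, an inward rectifier channel, at −0.29, neither of which passed. Nppb, the precursor of brain natriuretic peptide, which ventricles make under load, differed by −0.34 (SE 0.18) and Myh7, the slow heavy chain, by −0.21 (SE 0.37), again without passing. The second Myh7 probe set differed by 0.22 (SE 0.54). The 5 genes of natriuretic peptide processing above the filter, of 8 with a probe set, gave a median of −0.07, and the 5 of regulated secretion above it, of 14, one of 0.13, with 0 passing in each.

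**Figure D4:**
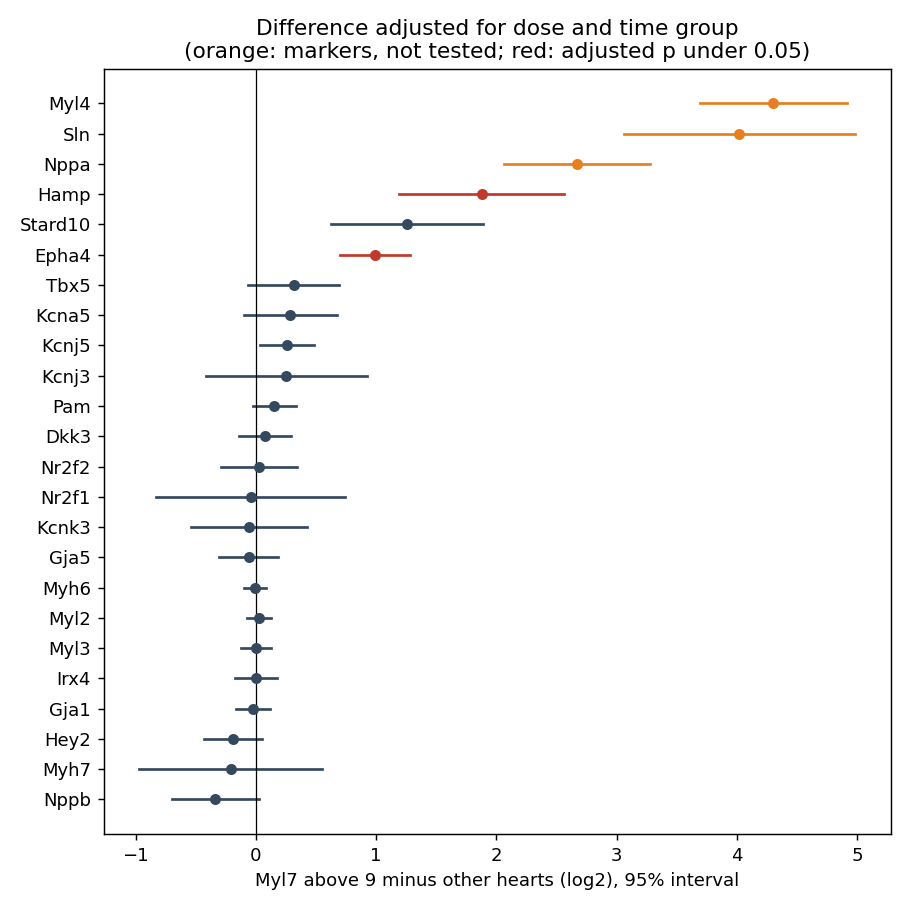
Difference of Myl7-high minus other hearts (log2), adjusted for dose and time group, with its 95% interval for 24 genes, markers in orange and genes of adjusted p under 0.05 in red. Myl4, Sln and Nppa lie above 2, Hamp and Epha4 near 2 and 1, and the intervals of Myl2, Myl3, Myh6 and Irx4 include 0.

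The 31 gene lists besides the markers, which cover muscle, metabolism, matrix and the other cell types a heart sample can hold, had 0 genes that passed. This says little about them, since over all 10556 genes only 5 passed, and 175 were higher and 253 lower at an unadjusted p under 0.05. The list medians ran from −0.10 for leukocytes to 0.29 for the 5 neuronal genes above the filter, and no list had more than 2 members at an unadjusted p under 0.05. The 15 capillary endothelial genes had a median of 0.01, the 10 fibroblast genes 0.01, the 9 epicardial genes −0.09, the 11 smooth muscle genes −0.01, the 5 adipocyte genes 0.03 and the 9 conduction system genes 0.03. Shared sarcomere, calcium handling, fatty acid oxidation and oxidative phosphorylation lists had medians of 0.01, 0.01, −0.02 and −0.01. The endothelial genes Rbp7, Gpihbp1, Fabp4 and Aqp1, of which earlier results described changes with rosiglitazone, differed by 0.22 (SE 0.39), 0.27 (SE 0.24), 0.07 (SE 0.14) and 0.01 (SE 0.13), with 0 of 4 passing.

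The markers were higher on average in Myl7-high hearts in each dose and time group that held both kinds of heart. Myl4 differed by 4.58, 3.96, 4.31 and 4.34 within vehicle 6 h, 10 mg/kg 6 h, 80 mg/kg 6 h and 80 mg/kg 24 h. Sln differed by 3.66, 3.84, 3.59 and 4.80, and Nppa by 3.18, 1.61, 2.81 and 2.93. Mybphl, which was not tested for this, differed by 3.91, 1.88, 3.74 and 3.21. The contrast at vehicle 6 h rests on 1 Myl7-high heart and the one at 10 mg/kg 6 h on 1 other heart.

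**Figure D5:**
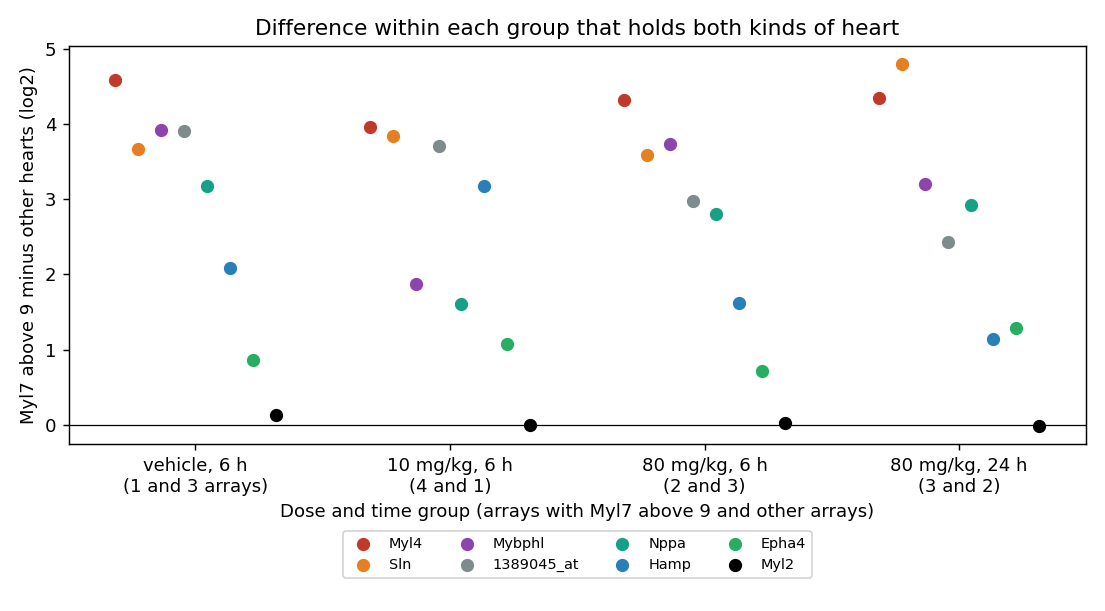
Difference of Myl7-high minus other hearts (log2) for 8 probe sets within each of the 4 dose and time groups that hold both kinds of heart, with the number of Myl7-high and other arrays under each group. Each atrial transcript lies above 0 in all 4 groups, and Myl2 lies between −0.02 and 0.13.

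A limma F test asked of every probe set whether the difference varied between these 4 groups, and 52 passed, 0.279% of 18624. Of the 52, 41 had their largest difference in vehicle 6 h, where replicate 6 is the only Myl7-high heart, and 2 passed without that array, in a test over the 3 groups that then still held both kinds of heart. The smallest p-values belonged to Zfp296, Hdac10, Tmem106c, Mki67, Coil, Cchcr1, Rtf1 and Lrwd1. Zfp296, a zinc finger gene, was at 1.91 in replicate 6 and at 5.35 to 6.35 in the other 29 hearts. Hdac10, a deacetylase, was at 1.93 there and at 5.02 to 6.00 elsewhere. Mki67, a proliferation marker, was at 2.38 against 4.54 to 6.67, and Rtf1, a transcription elongation factor, at 1.98 against 5.09 to 6.74. Each of the 8 genes was lower in that array than in any of the other 29, so these 8 calls rest on 1 array. No gene raised in Myl7-high hearts was among the 52.

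The 32 hearts of 168 and 336 h, which the split did not use, held Myl7 between 4.998 and 8.533. A slope on the Myl7 level was fitted there with a mean for each dose and time group. Of 18624 probe sets 0 passed, 0% of those compared, the smallest limma adjusted p was 0.965, and 901 lay at an unadjusted p under 0.05, 4.84%. Per unit of Myl7 the slope was 0.42 (SE 0.16) for Nppa, 0.25 (SE 0.10) for Hamp, 0.50 (SE 0.25) for 1389045_at, 0.14 (SE 0.08) for Myl4 and 0.13 (SE 0.28) for Sln. For Epha4 it was 0.003 (SE 0.06), for Myl2 −0.02 (SE 0.02) and for Kcnj5 −0.05 (SE 0.06). None passed, and the range of Myl7 in these hearts is that of the other hearts at 6 and 24 h, below the limit of the split.

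The Myl7-high hearts fell unevenly over the groups, and atrial genes are therefore given here by dose with that in view. At 80 mg/kg and 24 h, where 3 of 5 hearts were Myl7-high, Myl4 averaged 9.36, against 7.03 in vehicle at 24 h, where none was. The difference was 2.33 (SE 1.08) for Myl4, 1.71 (SE 0.73) for Nppa and 1.78 (SE 1.10) for Sln. At 10 mg/kg and 24 h, where neither group held a Myl7-high heart, Myl4 differed from vehicle by 0.18, Nppa by 0.01 and Sln by 0.46. The order of the doses was the other way at 6 h. There Myl4, Nppa and Sln differed from vehicle by 1.53 (SE 1.2), 1.205 (SE 0.80) and 0.88 (SE 1.22) at 10 mg/kg. At 80 mg/kg and 6 h they differed by 0.62 (SE 1.2), 0.31 (SE 0.80) and 0.43 (SE 1.22). A model with the split removes marker differences by its construction, so its values are not given for these 3 genes. For 3 other genes, named for their rise in Myl7-high hearts, the lowering by this term is fixed by construction as well. In each comparison given below for these other genes, Mybphl, Hamp and Epha4, the dosed group held the larger share of Myl7-high hearts. The term moved the difference toward 0 in some and further below 0 in others, which is a description and no test. Mybphl at 80 mg/kg and 24 h differed from vehicle by 3.74 (SE 0.93) without the term and by 1.81 (SE 0.61) with it. Hamp in the same comparison differed by −0.04 (SE 0.60) without the term and by −1.17 (SE 0.46) with it, and at 10 mg/kg and 6 h by 1.19 (SE 0.66) without it and 0.16 (SE 0.49) with it. Epha4 at 10 mg/kg and 6 h differed by −0.18 (SE 0.32) without the term and by −0.73 (SE 0.21) with it. Whether the share of Myl7-high hearts follows the dose was not tested.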

How the data were processed

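Linear intensity values per probe set were deposited for 62 Affymetrix rat arrays, with GCOS and MAS5 used by the authors, per the submitters' processing notes. The sources used here do not give their versions. Array medians differed up to 2.79-fold, so log2 signals were quantile normalized over all 62 arrays after 57 control probe sets were left out. Of 31042 probe sets, 18625 with a mean at or above the 40th percentile (5.03) were tested. Genes came from the platform annotation, where 20826 probe sets had 1 gene, 436 several and 9780 none, and 20758 of the first matched a RefSeq symbol. Where a gene had several probe sets, the one of highest mean was used.

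limma 3.58.1 in R 4.3.3 fitted the 30 arrays of 6 and 24 h with a mean for each of 6 dose and time groups and a Myl7 term (23 residual degrees of freedom), two-sided, with Benjamini-Hochberg adjustment. A second fit gave each group its own Myl7 term, and another gave the slope on Myl7 in the 32 later arrays. The fits were tested on simulated data. Genes were named if called (largest 15 in each direction), if among the 8 smallest p-values of the F test or the slope and called, or if in a fixed cardiac set; the rest were picked with their values in view. The members, the split and the 32 lists were chosen with earlier results of these data known. Alternatives covered normalization, filter, arrays, replicate numbers, array clusters, RNA quality and array weights. The number of arrays limits the precision. No pair of arrays was identical, and rank correlations within groups lay between 0.885 and 0.952.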

Additional observations from a re-analysis of the deposited data

Results flagged for a closer look

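The array of 10 mg/kg 6 h replicate 5 stood far from the other 9 Myl7-high hearts for 4 of the 33 probe sets examined in this way. Its level was 9.325 for Myl7, where the next heart had 11.22, and 7.774 for Myl4, where the next had 10.11. It was 11.05 for Nppa, with the next at 12.59, and 7.563 for Sln, with the next at 9.465. Chance alone sets apart about 1 in 20 groups in this way, and the 4 genes move together in the same 10 hearts. Leaving out the arrays of Myl7 above 8 and at or below 10, this one included, left 6 probe sets passing.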

How the results depend on the processing

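The 6 probe sets that passed besides Myl7 became 5 on the deposited scale, 6 with arrays scaled to a common median and 8 without a filter. There were 3 at the stricter filter, the 60th percentile, which leaves fewer probe sets to test and drops dim ones. These were the markers Myl4, Nppa and Sln, since Hamp, Epha4 and 1389045_at fell below that filter and were not tested. Leaving out single arrays gave 5 to 6. Within single groups, with few arrays on each side, there were 198 in vehicle 6 h (7 higher and 191 lower), 18 in 10 mg/kg 6 h, all higher, 2 in 80 mg/kg 6 h and 1 in 80 mg/kg 24 h; the first rests on 1 Myl7-high array and the cause was not tested. With the replicate number as a block 5 passed, and Hamp did not (limma adjusted p 0.262). The mean correlation of residuals was 0.026 over 61 pairs with the same replicate number, the highest being 0.448. It was −0.00486 over 313 pairs with different numbers. Of 30 arrays, 10 correlated best with their own number. Whether replicate numbers pair the samples was not tested. With Myl7, Myl4, Nppa and Sln left out of the adjustment, an alternative chosen after seeing the data, 3 still passed, with Hamp at a limma adjusted p of 0.0447. The 52 probe sets whose difference varied between groups became 9 on the deposited scale, 43 with median scaling, 57 without a filter and 11 with the replicate block. Leaving out single arrays, chosen after seeing the data, gave 2 to 119: 2 without vehicle 6 h replicate 6, which leaves 3 groups to compare, 32 without vehicle 6 h replicate 3, 88 without 80 mg/kg 24 h replicate 3 and 119 without 80 mg/kg 24 h replicate 6; the cause was not tested. The slope at 168 and 336 h gave 0 under every alternative run. No result changed sign where it had passed. Myl2, Myl3 and Myh6 lay near the top of the signal scale, and Mybphl and Dmrta1 passed only without the filter.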

Other observations

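Several differences of 1.3 or more in size did not pass and were chosen for naming after their values were seen. Adh1c, an alcohol dehydrogenase, had a lowest, median and highest level of 5.53, 7.54 and 8.33 in Myl7-high hearts and of 2.60, 6.21 and 8.35 in the other hearts, with a difference of 1.65 (SE 0.66) and a limma adjusted p of 0.999. Its difference was 3.55 within 10 mg/kg 6 h and 0.55 within vehicle 6 h. Kiaa0040 lay at 2.30, 4.73 and 5.96 in Myl7-high hearts and at 1.94, 5.69 and 7.07 in the other hearts, a difference of −1.71 (SE 0.55) with a limma adjusted p of 0.999. The levels of both genes overlapped between the 2 kinds of heart.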
